A study of Homo sapiens with 6 samples.

Results

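The 10 genes described here encode proteins that bring iron into cells, store it, release it and sense it. They were taken by gene symbol from the table of read counts in DU-145-DR/tet-MUC1shRNA cells, which lists 28008 genes, and all 10 were found. TFRC, SLC11A2 and STEAP3 act in iron import, FTH1, FTL and NCOA4 in storage, SLC40A1 in export, and ACO1, IREB2 and FBXL5 in sensing. DU-145 is a human prostate cancer cell line, and DU-145-DR cells are its derivative selected for resistance to docetaxel (DTX). Cells transduced with a tet-inducible MUC1shRNA were grown with 0.1% DMSO as vehicle (DOX-negative, n = 3 cultures) or with 500 ng/ml doxycycline (DOX-positive, n = 3 cultures), and poly(A) RNA was sequenced from each culture. Both groups are DTX-resistant and were selected in puromycin. In the labels the hairpin appears with DOX-positive samples alone, and whether the line was a clone or a pool was not given in the sources used here.

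Iron enters most cells bound to transferrin, which is taken up by the transferrin receptor, reduced in endosomes and carried into the cytosol. Iron that is not used is held inside ferritin shells, and ferroportin is the exporter. Iron regulatory proteins bind hairpins called iron-responsive elements (IREs) when iron is scarce: binding protects the receptor mRNA from decay and blocks translation of the ferritin mRNAs. Ferritin control of that kind does not need a change in mRNA and is not seen in read counts. Doxycycline belongs to the tetracyclines, which bind metal ions, iron among them. The comparison of DOX-positive with DOX-negative cells therefore measures MUC1 silencing together with DOX exposure, and the 2 cannot be told apart in these libraries. As the libraries are of bulk RNA, fewer cells with a transcript and less transcript per cell cannot be told apart either.

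Library totals ran from 15092691 to 23243713 counts, and 3 counts, taken as the detection floor, came to between 0.129 and 0.199 CPM (counts scaled to library size). MUC1, the targeted gene, had 387, 484 and 396 counts in DOX-negative and 75, 74 and 66 counts in DOX-positive replicates 1 to 3. Its log2 fold change was -2.52 (SE 0.146, edgeR adjusted p = 4.47e-11), which goes with the labels. The 5 epithelial markers KRT8, KRT18, KRT19, EPCAM and CDH1 were detected in every library. Their summed level ran from 767 to 861 CPM without DOX and from 1429 to 1498 CPM with DOX, so it moved with the groups; its part in the changes of iron genes was not tested. KLK3 was at 0 counts in all libraries, as were the erythroid genes HBA1, HBB and ALAS2. Leukocyte markers summed to at most 0.473 CPM and endothelial markers to at most 0.947 CPM, with CD3E at 0.

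IREs carry the regulation that links several of these genes, so the hairpins found in their transcripts are shown first. The transcripts of protein-coding genes in GENCODE 29 (GRCh38) were searched for a C, then 5 bases, then the loop CAGTGN with N other than G, then 5 bases that pair with the first 5, G-T pairs allowed. Such a match in a UTR occurred in 130 of 19669 genes (0.661%), and in 4 of the 10 iron genes. The pattern is that of known IREs, and the 10 genes were chosen for iron handling. These shares were therefore set to differ and are not a test. Each match in the iron genes is printed below 5′ to 3′ in 30 bases on the strand of the gene, as DNA letters, with the loop in capitals.
TFRC site 1: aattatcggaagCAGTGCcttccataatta
TFRC site 2: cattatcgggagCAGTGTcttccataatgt
TFRC site 3: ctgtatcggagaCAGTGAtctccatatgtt
TFRC site 4: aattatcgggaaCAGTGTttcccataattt
FTH1: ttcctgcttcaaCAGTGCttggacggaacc
FTL: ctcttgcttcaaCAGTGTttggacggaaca
SLC40A1: caacttcagctaCAGTGTtagctaagtttg

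The 4 TFRC sites lay in the 3′ UTR, at chr3:196050978-196051007, chr3:196050574-196050603, chr3:196050509-196050538 and chr3:196050462-196050491 on the minus strand. They were held by 3 of the 4 protein-coding TFRC transcripts. The others lay in 5′ UTRs: FTH1 at chr11:61967573-61967602 on the minus strand (7 of 8 protein-coding transcripts), FTL at chr19:48965335-48965364 on the plus strand (1 of 1) and SLC40A1 at chr2:189580660-189580689 on the minus strand (1 of 5). IREs with another loop or an unpaired stem base would be missed, so the 4 sites need not be all those of TFRC. Where a gene has no match, only these letters are absent. SLC11A2 is known to have transcripts that end with and without an IRE. The count table gives 1 value per gene, so these forms could not be followed. The heptamer ATCAGTA, which an earlier scan of these data picked, occurred in the 3′ UTR of 11.4% of 12275 genes tested (median log2 fold change -0.0979 with it and 0.00164 without it). None of the 10 iron genes held it there, in the protein-coding transcript with the longest 3′ UTR, and ACO1 held it 2 times before the 3′ UTR. As the heptamer was picked from these same data, the medians with and without it are not a test of it.

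Ferritin transcripts were lower in DOX-positive cells, whereas transcripts of the ferritin-degrading receptor NCOA4 and of the iron sensor FBXL5 were higher. All 10 genes passed the filter on low counts. Of these, 3 had higher and 2 had lower transcripts at an adjusted p under 0.05 (edgeR quasi-likelihood test with Benjamini-Hochberg adjustment over all genes). Among all 14292 genes tested 26.7% were called, 13.0% higher and 13.7% lower. The groups did not overlap for 7 of the 10 genes, against 39.8% of all genes tested. The median log2 fold change of the 10 genes was -0.067, against -0.0034 over all genes tested. The changes were small: the largest, that of NCOA4, was 0.44, and 19.1% of all genes tested changed by at least as much in either direction.

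**Figure D1:**
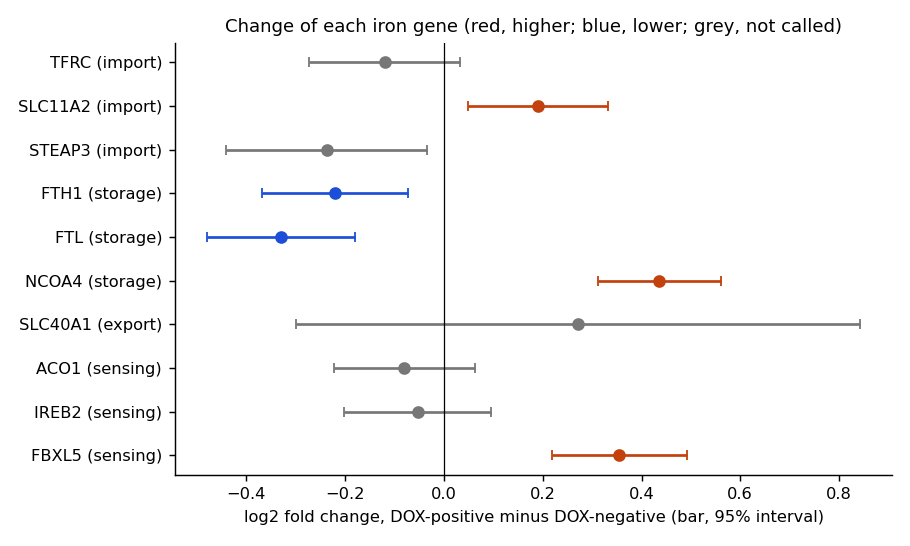
Log2 fold change of each iron gene (x axis, DOX-positive minus DOX-negative; points, edgeR estimates; bars, 95% intervals; n = 3 libraries a group). NCOA4, FBXL5 and SLC11A2 lie above 0 and were called higher, FTL and FTH1 lie below 0 and were called lower, and the interval of SLC40A1 is the widest, from -0.30 to 0.84.

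Levels of different genes were compared per transcript length, on the deposited TPM values after rescaling without 5 short noncoding RNAs. Ferritin subunits led by far. FTH1 was at 9032 ± 502 and FTL at 8064 ± 429 rescaled TPM in DOX-negative cells (SD, n = 3 each). TFRC came next, at 814 ± 30.6. NCOA4 was at 205 ± 1.06, FBXL5 at 97.9 ± 1.31 and ACO1 at 82.8 ± 1.25. IREB2 (52.9 ± 0.713), SLC11A2 (28.8 ± 0.984) and SLC40A1 (2.09 ± 0.357) were lower still, with STEAP3 between them at 15.2 to 16.95. The order was the same in DOX-positive cells. Neighbours in this order did not overlap within either group. FTL was nearest to its neighbour, at 0.925, 0.884 and 0.870 times FTH1 in the 3 DOX-negative libraries. By counts, FTH1 ranked between 4 and 11 and TFRC between 23 and 40 among all genes in a library.

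Among import genes, TFRC encodes transferrin receptor 1 (chr3:196027183-196082189). It was at 1539, 1518 and 1701 CPM in DOX-negative and 1541, 1294 and 1542 CPM in DOX-positive replicates 1 to 3. The groups overlapped, and DOX-positive replicate 2 was the lowest library. The log2 fold change was -0.12 (SE 0.0735, edgeR adjusted p = 0.244), with a 95% interval from -0.27 to 0.032. In none of 17 other settings was TFRC called.

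SLC11A2 encodes DMT1, the transporter that carries ferrous iron across membranes (chr12:50979401-51028566). Its level was 72.8, 73.8 and 72.4 CPM without DOX and 81.9, 84.7 and 83.3 CPM with DOX. The groups were apart, with all values higher under DOX and little spread in either group. The log2 fold change was 0.19 (SE 0.0685, edgeR adjusted p = 0.0434). This call was near the threshold: it was lost on leaving out any 1 of the 6 libraries, at an adjusted p between 0.0614 without DOX-negative replicate 2 and 0.128 without DOX-negative replicate 1, and with total counts in place of TMM scaling (0.100).

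STEAP3, a ferrireductase of endosomes (chr2:119223831-119265652), is a known target of p53. It was at 28.1, 25.9 and 26.2 CPM in DOX-negative and 24.6, 20.7 and 22.7 CPM in DOX-positive libraries. The groups did not overlap, but the log2 fold change of -0.24 (SE 0.0980) did not pass the threshold (edgeR adjusted p = 0.0787). It passed with total counts (0.0456). The antisense gene STEAP3-AS1 had at most 1 count in any library.

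**Figure D2:**
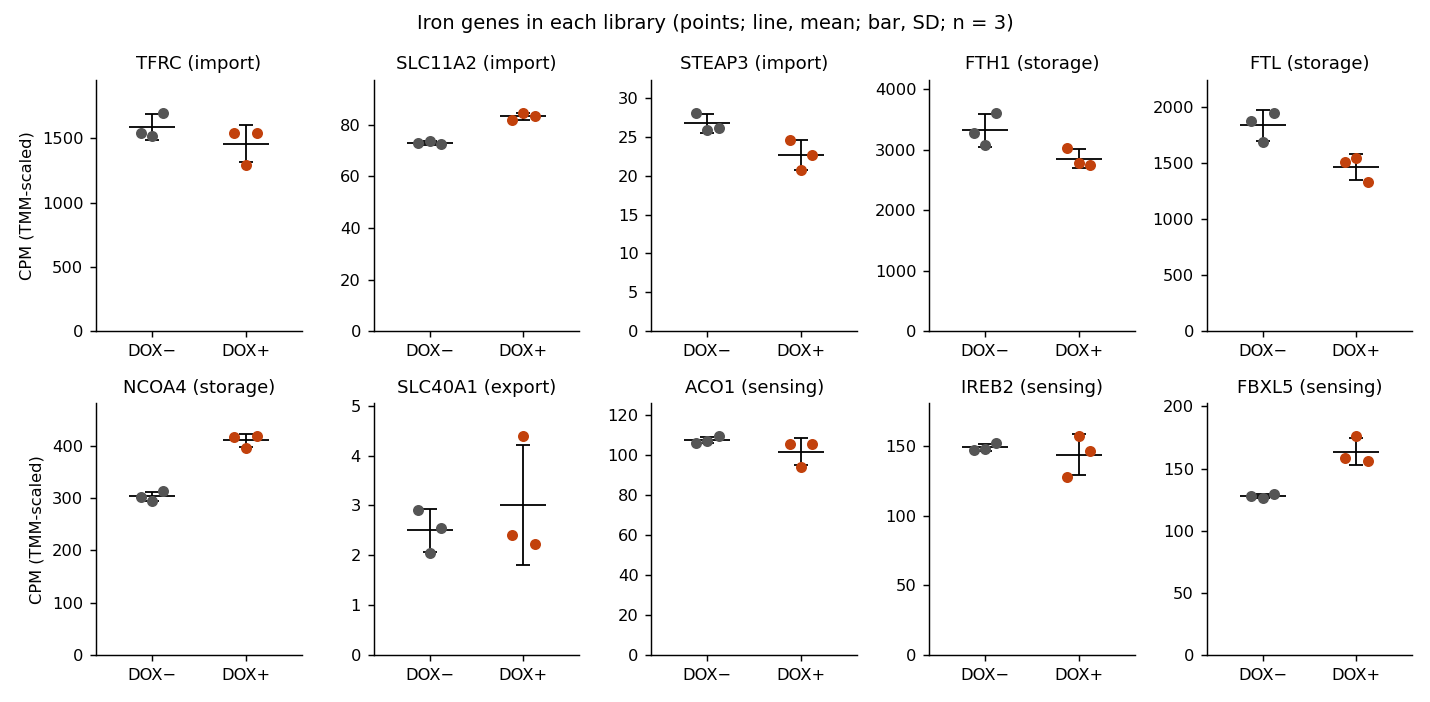
TMM-scaled CPM (y axes, each from 0) of the 10 iron genes in every library, by group (points, libraries; line, mean; bar, SD; n = 3). Points of SLC11A2, NCOA4 and FBXL5 lie higher with DOX and those of STEAP3, FTH1, FTL and ACO1 lower without overlap, while those of TFRC, SLC40A1 and IREB2 overlap.

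Among storage genes, both ferritin subunits were lower with DOX. FTH1 encodes the heavy subunit, which oxidizes ferrous iron (chr11:61959718-61967660). Its level was 3272, 3073 and 3613 CPM in DOX-negative and 3031, 2775 and 2740 CPM in DOX-positive replicates 1 to 3. The highest DOX-positive library was just under the lowest DOX-negative library. FTH1 fell by 0.22 (log2 fold change, SE 0.0713, edgeR adjusted p = 0.0250), to 85.8% of the DOX-negative mean. The call was lost in 8 of 17 other settings, among them those leaving out replicate 1 (0.0585) or 3 (0.103) of the DOX-negative cultures, or replicate 2 (0.0696) or 3 (0.113) of the DOX-positive ones.

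FTL encodes the light subunit, which helps to form the mineral core (chr19:48965301-48966878). It was at 1879, 1686 and 1953 CPM without DOX and at 1511, 1548 and 1333 CPM with DOX, so all DOX-positive libraries were lower. FTL fell by 0.33 (log2 fold change, SE 0.0722, edgeR adjusted p = 0.00160), to 79.6% of the DOX-negative mean. This call held on leaving out each library. Together the 2 genes held between 0.401% and 0.554% of all counts in a library.

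Ferritin genes have many near-identical processed pseudogenes, 25 named after FTH1 and 16 named after FTL in GENCODE 29, which can share reads with them. The count table lists 3 of these rows. FTH1P3 had between 61 and 100 counts, and FTH1P18 and FTLP10 had 0 in every library. Adding these rows to FTH1 and FTL changed neither call. For FTL this added 0 counts, so its outcome was fixed, and the counts added to FTH1 were few. Reads shared with pseudogenes that have no row could not be checked. BEST1, whose exons overlap those of FTH1 on the opposite strand, had between 14 and 25 counts.

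NCOA4 encodes the receptor that delivers ferritin to lysosomes, where its iron is released (chr10:46005088-46030714). It was at 302, 295 and 313 CPM in DOX-negative and at 416, 396 and 418 CPM in DOX-positive libraries. The groups were far apart relative to their spread. NCOA4 rose by 0.44 (log2 fold change, SE 0.0597, edgeR adjusted p = 1.07e-05), to 135% of the DOX-negative mean. In the 16 other settings that scale on counts or on rescaled TPM, it stayed past the threshold.

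SLC40A1 encodes ferroportin, the exporter of iron (chr2:189560579-189583758). It had 53, 40 and 51 counts in DOX-negative and 55, 84 and 33 counts in DOX-positive libraries, which came to between 2.05 and 4.39 CPM. DOX-positive replicate 2 was the highest and DOX-positive replicate 3 the second lowest of the 6 libraries. The log2 fold change was 0.27 (SE 0.275, edgeR adjusted p = 0.510) and turned to -0.11 without DOX-positive replicate 2, so its direction rested on that library.

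Iron sensing was read from 3 genes. ACO1 encodes IRP1, which is an aconitase when it holds an iron-sulfur cluster and binds IREs when it does not (chr9:32384603-32454769). Its level was 106, 107 and 109 CPM in DOX-negative and 105, 94.0 and 105.5 CPM in DOX-positive libraries. All DOX-positive values were lower, but 2 of the 3 by little, and the log2 fold change of -0.080 (SE 0.0688) did not pass the threshold (edgeR adjusted p = 0.424, 95% interval from -0.22 to 0.063).

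IREB2 encodes IRP2, which is degraded when iron is plentiful (chr15:78437431-78501456). It was at 147, 148 and 152 CPM without DOX and at 128, 157 and 146 CPM with DOX. The groups overlapped, as DOX-positive libraries spread on both sides of the DOX-negative ones. The log2 fold change was -0.053 (SE 0.0720, edgeR adjusted p = 0.634, 95% interval from -0.20 to 0.096).

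FBXL5 encodes the iron-binding subunit of the ubiquitin ligase that degrades IRP2 (chr4:15604539-15681679). Its level was 128, 126 and 129.5 CPM in DOX-negative and 158, 176 and 156 CPM in DOX-positive libraries. Every DOX-positive library was above the DOX-negative ones, and replicate 2 was the highest. FBXL5 rose by 0.36 (log2 fold change, SE 0.0660, edgeR adjusted p = 0.000352), to 128% of the DOX-negative mean. Its substrate is the IRP2 protein, which read counts do not measure. FAM200B, whose exons overlap those of FBXL5 on the opposite strand, had between 1714 and 2686 counts. Whether counting used strand is not given in the sources used here; if it did not, reads from the 2 genes could not be told apart.

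Ratios within a library need no scaling between libraries. The ratio of TFRC to FTH1 counts was 0.470, 0.494 and 0.471 in DOX-negative and 0.508, 0.467 and 0.563 in DOX-positive libraries. The groups overlapped, with a log2 difference of 0.096 (exact permutation test, two-sided, p = 0.4, where 3 against 3 libraries cannot go below 0.1). The ratio was highest in DOX-positive replicate 3, and the log2 difference was 0.026 without it.

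NCOA4 was at 0.0922, 0.0960 and 0.0866 times the FTH1 count in DOX-negative and at 0.137, 0.143 and 0.153 times in DOX-positive libraries, a log2 difference of 0.66. As NCOA4 was higher and FTH1 lower without overlap, this ratio had to separate the groups, and it adds no test to theirs. FTL stood at 0.574, 0.549 and 0.541 times FTH1 without DOX and at 0.498, 0.558 and 0.487 times with DOX, which overlapped (exact permutation p = 0.3). The ratio of IREB2 to ACO1 counts was 1.388, 1.388 and 1.393 in DOX-negative libraries and ranged from 1.22 in replicate 1 to 1.67 in replicate 2 in DOX-positive ones.

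**Figure D3:**
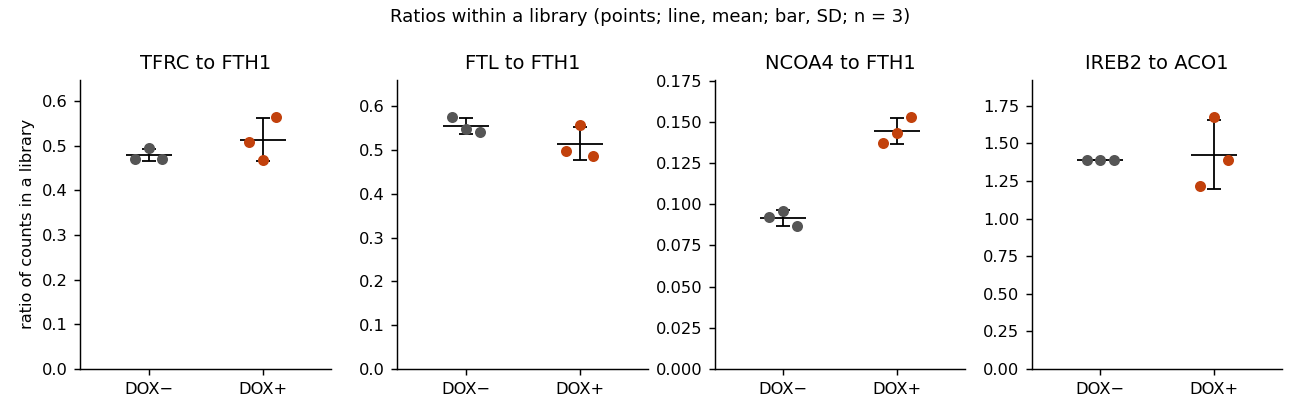
Ratios of counts between pairs of iron genes within a library (y axes, from 0) by group (points, libraries; line, mean; bar, SD; n = 3). NCOA4 to FTH1 separates the groups (0.0916 against 0.144 on average), whereas TFRC to FTH1, FTL to FTH1 and IREB2 to ACO1 overlap.

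Other genes of iron handling were described from lists that leave out the 10 genes above. Across the lists, 104 of 116 genes were tested and 26 were called higher and 16 lower, or 40.4% called. Over all genes tested the share was 26.7%, with 13.0% higher and 13.7% lower. These lists were chosen with results of these data known, and no list was tested as a set. Of 12 further uptake genes tested, 5 were called higher and 1 lower. LCN2, a siderophore-binding protein, was at 5.12, 5.37 and 3.58 CPM in DOX-negative and 8.50, 18.4 and 8.74 CPM in DOX-positive libraries. It rose by 1.35 (log2 fold change, SE 0.238, edgeR adjusted p = 0.000218), and by 0.88 without DOX-positive replicate 2, the highest library (edgeR adjusted p = 0.000873). SLC39A8, a zinc transporter that also carries iron, rose by 0.47 (SE 0.0682, edgeR adjusted p = 2.33e-05). STEAP4, a metalloreductase, rose by 0.85 (SE 0.265, edgeR adjusted p = 0.0201) from a mean of 1.61 to 2.90 CPM, and this call was lost in 3 of the fits without 1 library, at 0.0604 and 0.0907 on dropping DOX-negative replicate 1 or 2 and at 0.0674 on dropping replicate 2 of the DOX-positive cultures.

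None of 6 tested genes for iron chaperones and ferritin turnover was called by edgeR or DESeq2, and 0 had an unadjusted p under 0.05. These include PCBP1 and PCBP2, chaperones that hand iron to ferritin, at log2 fold changes of 0.10 and 0.084. In the export list, 1 of 6 genes tested was called lower and 1 higher (33.3%, against 26.7% of all genes tested). ABCG2, a transporter of haem and drugs, fell by 0.69 (log2 fold change, SE 0.140, edgeR adjusted p = 0.000867). CP, the ferroxidase ceruloplasmin, was named after its values were seen: it had 6, 11 and 11 counts in DOX-negative and 33, 19 and 19 counts in DOX-positive libraries (log2 fold change 1.35, SE 0.404, edgeR adjusted p = 0.0163).

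Of 22 genes of mitochondrial iron entry and iron-sulfur cluster assembly tested, 5 were called higher and 2 lower (31.8%), a share near the 26.7% of all genes tested. SLC25A37, mitoferrin-1, which brings iron into mitochondria, was at 165, 157.5 and 146 CPM without DOX and at 112, 105 and 111 CPM with DOX. It fell by 0.51 (SE 0.0670, edgeR adjusted p = 5.82e-06). NFS1, the desulfurase that supplies sulfur to the clusters, rose by 0.43 (SE 0.0742, edgeR adjusted p = 0.000161). ABCB8, a mitochondrial transporter, rose by 0.48 (SE 0.118, edgeR adjusted p = 0.00408). In the cytosolic assembly list 0 of 10 genes tested were called higher and 2 lower, and CIAO1 and MMS19, both of the targeting complex, fell by 0.55 and 0.37 (edgeR adjusted p = 8.63e-06 and 0.00409).

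Of 14 haem genes tested, 3 were called higher and 2 lower (35.7%, against 26.7% of all genes tested). HMOX1, the inducible haem oxygenase that frees iron from haem, was at 29.2, 28.2 and 36.9 CPM in DOX-negative and 24.1, 12.1 and 23.1 CPM in DOX-positive libraries. It fell by 0.67 (log2 fold change, SE 0.165, edgeR adjusted p = 0.00424). DESeq2 gave a log2 fold change of -0.67 that did not pass the threshold (adjusted p = 0.120). Without DOX-positive replicate 2, the lowest library, the log2 fold change was -0.41 (edgeR adjusted p = 0.00790). HMOX2, the constitutive form, rose by 0.35 (SE 0.105, edgeR adjusted p = 0.0164), although the groups overlapped and the call was lost on dropping replicate 1 without DOX (0.0822) or replicate 1 (0.0784) or 3 (0.106) with DOX. FECH, which inserts iron into haem, fell by 0.29 (SE 0.0722, edgeR adjusted p = 0.00478).

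FTH1, FTL and SLC40A1 are also known targets of NRF2, a factor of the antioxidant response. Of these 3, SLC40A1 was not called (log2 fold change 0.27, edgeR adjusted p = 0.510). Of the 8 other NRF2 targets tested, 6 were called lower and 0 higher, with a median of -0.29. Over all genes tested 26.7% were called, 13.0% higher and 13.7% lower. NQO1, a quinone reductase, was at 1199, 1111 and 1227 CPM in DOX-negative and 798, 758 and 758 CPM in DOX-positive libraries. NQO1 fell by 0.61 (SE 0.0632, edgeR adjusted p = 2.21e-07) and GCLM, of glutathione synthesis, by 0.41 (SE 0.0783, edgeR adjusted p = 0.000446). HMOX1 belongs to this list as well. By DESeq2, 5 of the 8 were called lower. Any part of NRF2 in the ferritin changes was not tested.

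Transcripts that iron chelators raise through HIF were split between directions: of 10 tested, 5 were called higher and 2 lower, with a median of 0.25. The share called was 70.0%, against 26.7% of all genes tested. ADM, a vasodilator peptide, rose by 1.04 (SE 0.142, edgeR adjusted p = 1.06e-05) and NDRG1 by 0.79 (SE 0.0825, edgeR adjusted p = 2.72e-07). EGLN3, an iron-dependent prolyl hydroxylase and itself a HIF target, fell by 0.73 (SE 0.110, edgeR adjusted p = 3.54e-05). TFRC, which belongs to the same group of genes, was not called, as given above.

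Of 4 other genes known for an IRE that were tested, 3 were called higher (75.0%, against 26.7% of all genes tested called in either direction). Among them EPAS1, which encodes HIF-2α, and CDC42BPA were called at 0.25 and 0.20 with overlapping groups. Both calls were lost on dropping DOX-negative replicate 3 (edgeR adjusted p = 0.259 and 0.206) or replicate 2 with DOX (0.247 and 0.102). That of CDC42BPA was also lost on dropping replicate 1 without DOX (0.0958) or replicate 3 with DOX (0.142), and that of EPAS1 by DESeq2 (adjusted p = 0.0512). Among 13 genes listed as iron-dependent or iron-sulfur enzymes or their partners, 4 were called higher and 1 lower (38.5%, against 26.7% of all genes tested). Some of the listed partners hold no iron themselves, the gene called lower among them. The sterol enzymes SC5D and MSMO1 rose by 0.39 and 0.29 (edgeR adjusted p = 0.000391 and 0.00348). DPYD, a pyrimidine-degrading enzyme with iron-sulfur clusters, rose by 0.53 (SE 0.181, edgeR adjusted p = 0.0325), and this call was lost in 4 of the fits without 1 library, at 0.0851 and 0.115 on dropping replicates 2 and 3 without DOX and at 0.0552 and 0.136 on dropping replicates 1 and 2 with DOX.

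**Figure D4:**
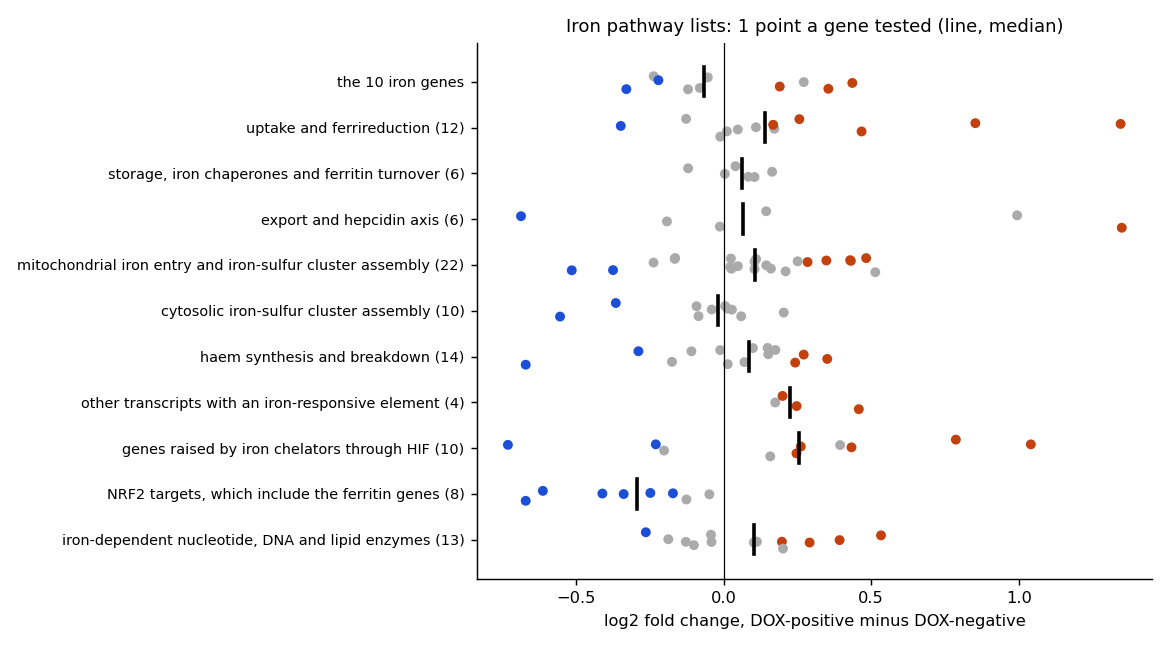
Log2 fold change (x axis, DOX-positive minus DOX-negative) of each gene tested in the 10 iron genes and 10 further lists (rows, number of genes tested in parentheses; red, called higher; blue, called lower; grey, not called; line, median). The NRF2 targets lie below 0 with a median of -0.29. The other lists spread over both sides or lie near 0, except the 4 other genes known for an IRE, which all lie above 0. Of the iron genes with a printed IRE, TFRC, FTH1 and FTL lie below 0 and SLC40A1 above.

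FTL, NCOA4 and FBXL5 were called in 16 of 17 other settings. The exception was the deposited TPM, in which short noncoding RNAs take between 34.4% and 64.4% of a library and the median of all genes moved to -0.30. Relative to that shift each of the 3 kept its direction. No iron gene was called in that setting (limma, 1 gene at an unadjusted p under 0.05).

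**Figure D5:**
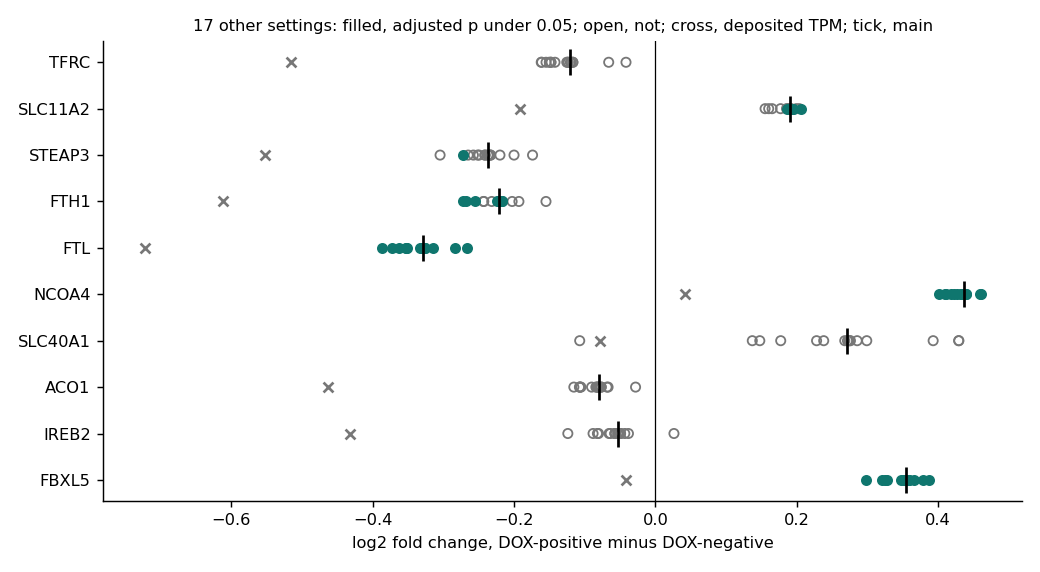
Log2 fold change (x axis, DOX-positive minus DOX-negative) of the 10 iron genes as reported (tick) and in 17 other settings (filled, adjusted p under 0.05; open, not; cross, deposited TPM). Apart from the crosses, FTL, NCOA4 and FBXL5 are filled throughout, FTH1 and SLC11A2 are partly open, STEAP3 is filled once, and TFRC, SLC40A1, ACO1 and IREB2 are open.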

How the data were processed

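RNA-Seq was performed by the authors on poly(A)-selected stranded libraries (TruSeq Stranded mRNA) from triplicate cultures of each group. The deposited table of whole-number counts was made with STAR on GRCh38 per the submitters' processing notes; the counting step, its use of strand and the annotation were not given in the sources used here. The authors also deposited TPM values of 25546 genes, which were rescaled here without RPPH1, RN7SK, RN7SL1, RN7SL2 and RN7SL3, all short noncoding RNAs. The 10 genes and all lists were chosen with earlier results of these data known. Column names gave the DOX state and replicate of each sample.

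Counts were analyzed in R 4.3.3 with edgeR 4.0.16 (filterByExpr, TMM factors, glmQLFit and glmQLFTest, two-sided, group as the only term), on 14292 genes, with Benjamini-Hochberg adjusted p under 0.05 as the threshold. SE is the absolute log2 fold change over the square root of F, and 95% intervals use the degrees of freedom of the test. CPM values of single genes use TMM-scaled library sizes, and marker sums and floors use library totals. Fits were tested on simulated counts. Within groups, libraries varied beyond sampling noise (chi-square per degree of freedom between 3.65 and 19.0). Precision is set by depth and by n = 3; floors cover counting error only. Of each list, at most 3 called genes were named by rule. They had the largest absolute log2 fold change among those called at an average logCPM of at least 1. Symbols of 5 list genes were matched as older symbols (HFE2, FDX1L, FAM96A, FAM96B and NARFL).

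The 17 alternatives were RLE factors, total counts, DESeq2 1.42.0 (also the tool the authors used), thinning to the smallest total, a minimum of 10 counts in every library, no filter, the replicate number as a block, limma 3.58.1 on log2(TPM + 1), the same on rescaled TPM with pseudocounts of 1 and 0.1, ferritin pseudogene rows added to FTH1 and FTL, and each library left out in turn. Fold changes on the log2(TPM + pseudocount) scale understate low genes. Coordinates are of genes in GENCODE 29. Values of some list and marker genes are not reported here.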

Additional observations from a re-analysis of the deposited data

How the results depend on the processing

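MUC1 stayed past the threshold in all 17 settings. From log2(TPM + 1), 430 genes, 0 of the 10 iron genes and 4 pathway genes were called, against 3816, 5 and 42, and 9.30% of its calls were higher against 48.8%. This setting turned SLC11A2 (-0.19), SLC40A1 (-0.078), FBXL5 (-0.041), HMOX2 (-0.051), EPAS1 (-0.14), CDC42BPA (-0.19) and MSMO1 (-0.099). Rescaled TPM called 3 iron genes with either pseudocount, and 26 pathway genes with a pseudocount of 1 and 24 with 0.1. Of all 16346 genes tested in it, 2741 were called with a pseudocount of 1 and 2701 with 0.1, against 3816 of 14292. Total counts gave 39.3% higher calls. Leaving out each library gave 3 to 4 iron genes, with FTL, NCOA4 and FBXL5 always among them; FTH1 was the other gene on dropping replicate 2 without DOX or replicate 1 with DOX, and the count was 3 on dropping any of the other 4 libraries. Over all genes these fits called 2784 to 3645, and 28 to 38 pathway genes. SLC40A1 was -0.11 without DOX-positive replicate 2, in a range up to 0.43, and IREB2 was 0.026 without DOX-positive replicate 1, in a range down to -0.12. The cause of these changes was not tested.

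With the replicate block, 3158 genes were called, 3136 of them also without it, and 3 iron genes: SLC11A2 (adjusted p 0.101) and FTH1 (0.0594) were lost. The correlation between deviations of libraries with 1 number was -0.0702, -0.145 and -0.0366, which gave no sign of pairing. Over the 170 values of the 10 iron genes in other settings, 143 kept direction and side of the threshold, 21 lost a call in the same direction, 1 gained one and 5 changed sign, of which those of SLC11A2 and FBXL5 also lost a call; of 391 values of 23 other named genes, 334 kept both, 53 lost a call in the same direction and 4 changed sign and lost a call.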

Other observations

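DOX-positive replicate 2 was the outermost of its group for several iron genes. It had the lowest DOX-positive level of TFRC (1294 CPM against 1541 and 1542), ACO1 (94.0 against 105 and 105.5), HMOX1 (12.1 against 24.1 and 23.1), HMOX2 (34.8 against 46.7 and 49.1) and GCLM (99.4 against 125.5 and 121). It had the highest level of SLC40A1 (4.39 CPM against 2.40 and 2.22), LCN2 (18.4 against 8.50 and 8.74) and FBXL5 (176 against 158 and 156). With 3 libraries a group, whether it stands apart was not tested, and these genes were picked after their values were seen.

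HAMP, which encodes the hormone hepcidin that triggers degradation of ferroportin, was below the filter on low counts, at between 0 and 0.440 CPM.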
